A study of Mus musculus with 26 samples.

Results

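The report covers 10 mouse liver genes of the lipid droplet and of its lipases, chosen by symbol from a list of 10 and found among 55401 genes in the table of read counts. They are the perilipins Plin2, Plin4 and Plin5, the CIDE genes Cidea, Cideb and Cidec, the lipases Pnpla2 and Pnpla3, and the lipase inhibitors G0s2 and Hilpda. Male C57BL/6 mice were on a high-fat diet for 18 weeks from the age of 4 weeks, and the series' design text adds high cholesterol to the diet. The UCMSC-Exos group (8 libraries) had tail-vein injections of exosomes, small vesicles shed by cells, at intervals of 72 hours over 8 weeks. The untreated HFD group (9 libraries) shared strain, sex and diet, and no injection is listed for it, so that the exosomes cannot be told apart from the injections themselves. The 9 samples of the third group, LSCR, were not analysed here. Nothing in the labels gives body weight, liver fat, cage or batch, and each library is taken as 1 mouse from the sample titles.

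A lipid droplet is a core of triglyceride and sterol ester under a single phospholipid layer that carries proteins. Perilipins coat this surface and govern the access of lipases, and CIDE proteins move lipid from smaller to larger droplets where droplets touch. The product of Pnpla2, adipose triglyceride lipase (ATGL), takes the opening step of triglyceride breakdown, with ABHD5 as its co-activator and G0S2 and HILPDA as its inhibitors. In fatty liver, droplet proteins of hepatocytes, PLIN2 and CIDEC above all, are known to become abundant along with the stored fat.

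Libraries held 32941467 to 36065074 counted reads, and all 10 genes passed the filter on low counts. Liver identity was plain from 8 hepatocyte markers such as Alb, which summed to 38570 to 73400 CPM (counts scaled to library size) in UCMSC-Exos livers and 32780 to 52880 CPM in untreated HFD livers; all 8 were higher in UCMSC-Exos. In bulk tissue, fewer cells of a type and less RNA per cell cannot be told apart. UCMSC-Exos 9 lay at 27.1 on the first principal component, with the other treated libraries between −39.8 and −16.7 and the untreated ones between 0.36 and 35.8. Untreated HFD 3 held 10770 CPM of 8 pancreatic acinar markers and untreated HFD 9 held 7724 CPM of 6 skeletal muscle markers, against at most 17.9 and 1.90 CPM in any other library. Of 10 adipocyte markers, 3 were tested and 1 was higher in UCMSC-Exos; the list summed to 14.9 to 39.5 CPM in UCMSC-Exos and 16.2 to 39.7 CPM in untreated HFD. Adipoq, which only fat cells make in quantity, stood at 0.64 CPM in UCMSC-Exos 8 and at 1.29, 3.39, 1.46 and 1.92 CPM in untreated HFD 2, 3, 8 and 9, and at or near 0 in the other 12 libraries. Of the other marker lists, 2 of 10 macrophage genes rose and 1 fell, and 3 of 8 stellate cell genes fell (edgeR). Over all genes tested by edgeR, 9.73% rose and 10.4% fell. None of 6 cholangiocyte genes passed, with a median log2 fold change of −1.03 and all 6 negative. That list summed to 48.5 to 127 CPM in 7 UCMSC-Exos libraries and 584 CPM in UCMSC-Exos 9, against 118 to 521 CPM in untreated HFD. The stellate list summed to 194 to 329 CPM in those 7 and 829 CPM in UCMSC-Exos 9, against 297 to 1150 CPM in untreated HFD. The part of these cell types in the members' differences was not tested. The count of members was also taken without those 5 libraries.

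In the livers of the UCMSC-Exos group, 4 of the 10 genes fell: G0s2, Pnpla3, Cidec and Plin2. None rose by edgeR's quasi-likelihood test; at an unadjusted p under 0.05 the counts were 5 lower and 1 higher, DESeq2 also gave 4 lower and 0 higher, and limma voom gave 5 lower and 1 higher. Over all 16238 genes tested, 10.4% passed as lower and 9.73% as higher by edgeR, 20.2% in all. DESeq2 called 2062 of the 16238 genes lower and 2003 higher, and voom called 4134 lower and 3577 higher. The voom counts of the 10 genes are to be read beside that larger share. No all-gene count at an unadjusted p under 0.05 is given. The median log2 fold change of the 10 genes was −0.36, and that of all tested genes was −0.02. Pnpla2, Plin5, Hilpda, Cidea, Plin4 and Cideb did not pass. The count became 3 without the 5 libraries with Adipoq and 0 with 3 surrogate variables in the model, where 4 had an unadjusted p under 0.05. Over all genes, 666 of 16441 fell and 868 rose without the libraries with Adipoq. In the fit with surrogate variables 855 of 16238 fell and 694 rose, and no all-gene count at an unadjusted p is given. With surrogate variables the 4 genes had log2 fold changes of −1.50 (G0s2, edgeR adjusted p = 0.058), −1.53 (Pnpla3, 0.0503), −0.94 (Cidec, 0.0602) and −0.31 (Plin2, 0.168).

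**Figure D1:**
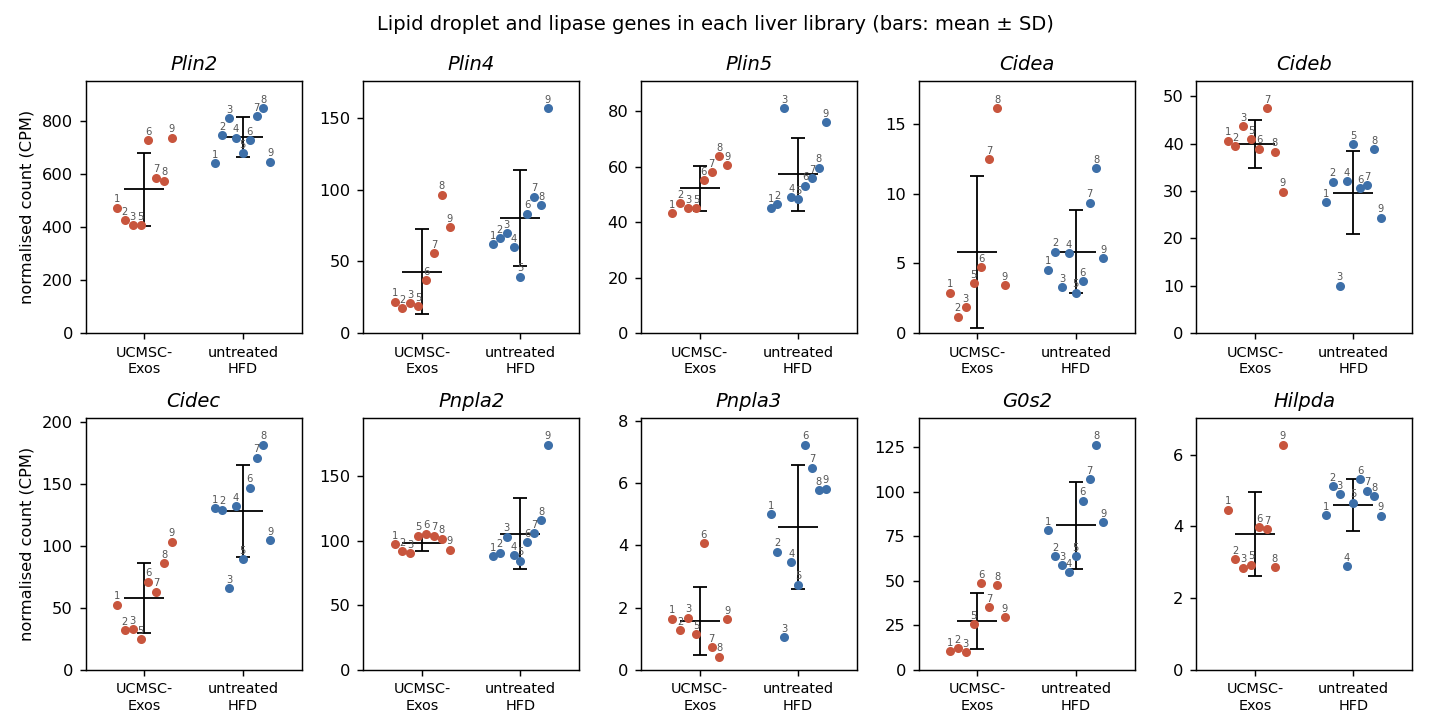
Normalised count in CPM on the y axis, from 0, of each of the 10 genes in each library, with the 8 UCMSC-Exos libraries on the left and the 9 untreated HFD libraries on the right of each panel. Small digits are replicate numbers, and bars are the mean ± SD. Every UCMSC-Exos library has less G0s2 (9.96 to 48.6 CPM) than the lowest untreated HFD library (54.6 CPM), while Pnpla2 overlaps fully between the groups.

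**Figure D2:**
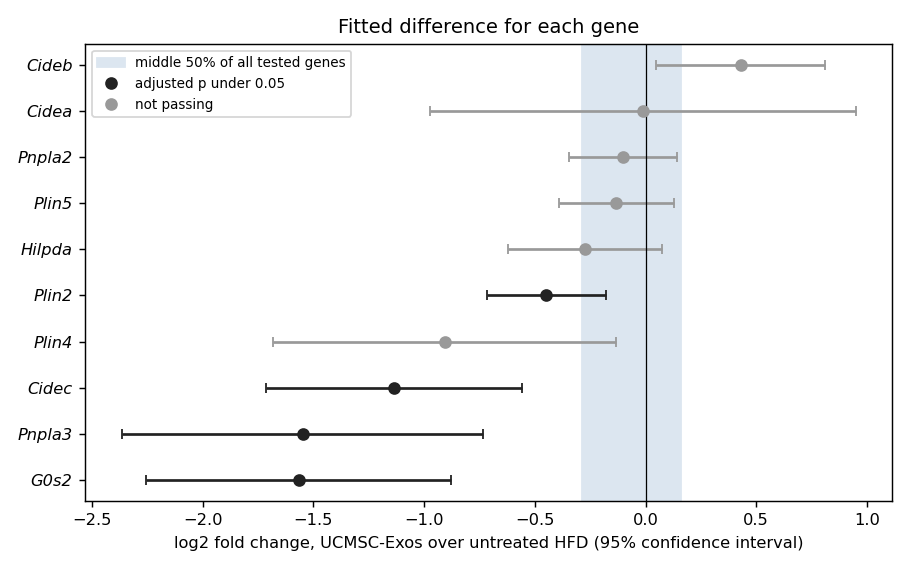
Log2 fold change of UCMSC-Exos over untreated HFD (x axis) with its 95% confidence interval for each gene, from the fit over all genes; black points passed an adjusted p of 0.05. The band holds the middle 50% of all tested genes, from −0.29 to 0.16. G0s2, Pnpla3 and Cidec lie farthest to the left, and the intervals of Cidea, Pnpla2, Plin5 and Hilpda cross 0.

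The 4 genes that fell have no shared neighbourhood. On mm10 Plin2 spans chromosome 4 from 86648386 to 86670060, Cidec chromosome 6 from 113424634 to 113435760, G0s2 chromosome 1 from 193272161 to 193273217 (these 3 on the minus strand), and Pnpla3 chromosome 15 from 84167837 to 84187236 on the plus strand. The 250 bases before each annotated start are printed because these genes moved in the same direction. They come from RefSeq on GRCm38.p6, the assembly behind mm10, where 9 of the 10 genes were looked up and all 9 had an entry, and Cidec has a window for each of 2 starts. Capitals mark any match, on either strand, to the nuclear receptor half-site AGGTCA, the direct repeat of that half-site spaced by 1 base that PPAR factors bind, the E-box CACGTG, the hypoxia core ACGTG (also found within the E-box) or TATAAA.
Plin2, chr4:86670060-86670309, minus strand: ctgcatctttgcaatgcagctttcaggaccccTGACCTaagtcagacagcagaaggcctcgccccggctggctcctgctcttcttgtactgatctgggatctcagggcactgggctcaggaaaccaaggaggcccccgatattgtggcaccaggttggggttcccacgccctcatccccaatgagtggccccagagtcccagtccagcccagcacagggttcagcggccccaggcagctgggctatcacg
Cidec, downstream start, chr6:113434765-113435014, minus strand: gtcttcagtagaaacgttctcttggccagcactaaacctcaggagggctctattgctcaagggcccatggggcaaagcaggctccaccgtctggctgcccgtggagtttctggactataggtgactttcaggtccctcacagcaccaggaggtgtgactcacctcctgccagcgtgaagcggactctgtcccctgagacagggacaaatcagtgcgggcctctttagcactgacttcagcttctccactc
Cidec, upstream start, chr6:113435761-113436010, minus strand: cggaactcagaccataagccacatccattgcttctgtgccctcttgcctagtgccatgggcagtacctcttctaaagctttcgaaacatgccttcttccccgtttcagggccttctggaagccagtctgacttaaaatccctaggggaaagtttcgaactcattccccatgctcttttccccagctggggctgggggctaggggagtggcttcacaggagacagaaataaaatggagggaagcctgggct
G0s2, chr1:193273189-193273438, minus strand: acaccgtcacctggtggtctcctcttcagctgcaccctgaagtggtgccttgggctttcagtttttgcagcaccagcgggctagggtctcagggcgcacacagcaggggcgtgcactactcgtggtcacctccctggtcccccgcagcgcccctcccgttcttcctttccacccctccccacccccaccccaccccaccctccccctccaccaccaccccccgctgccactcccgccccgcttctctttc
Pnpla3, chr15:84167566-84167815, plus strand: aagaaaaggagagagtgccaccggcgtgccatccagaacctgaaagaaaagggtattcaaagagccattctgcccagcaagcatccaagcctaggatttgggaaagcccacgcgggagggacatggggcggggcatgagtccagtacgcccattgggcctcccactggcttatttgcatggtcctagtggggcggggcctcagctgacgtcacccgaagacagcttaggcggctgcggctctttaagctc
Of these 5 windows only that of Plin2 held a match to these letters, a half-site on the opposite strand, and 14% of 32817 such windows of the genome hold one. The direct repeat was found in 0.0335% of all windows and in none of the 12 windows of the 9 genes. Matches are runs of letters, and none is shown to be bound.

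Among the perilipins, Plin2 fell and Plin4 and Plin5 did not pass. Plin2, the constitutive coat protein of hepatocyte droplets, had 407, 525 and 739 CPM (lowest, median, highest) in UCMSC-Exos livers, against 641, 738 and 851 CPM in untreated HFD livers. UCMSC-Exos 1, 2, 3, 5, 7 and 8 lay below every untreated library, and UCMSC-Exos 6 and 9, at 729 and 739 CPM, lay inside the untreated range. The means were 543 CPM ± 137 in UCMSC-Exos (SD, n = 8) and 741 CPM ± 76.0 in untreated HFD (SD, n = 9), a log2 fold change of −0.45 ± 0.13 (SE, edgeR adjusted p = 0.0213), or 0.733 of the untreated level by the fit. That call was lost without UCMSC-Exos 3 (log2 fold change −0.40, adjusted p = 0.05) and without the libraries with Adipoq (−0.43, adjusted p = 0.108); leaving out single libraries gave adjusted p of 0.00214 to 0.05.

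Plin4, a perilipin abundant in fat and muscle, ran from 17.1 CPM through a median of 29.4 CPM to 96.5 CPM in UCMSC-Exos, against 39.2, 69.7 and 157 CPM in untreated HFD. UCMSC-Exos 1, 2, 3 and 5 lay between 17.1 and 21.95 CPM and UCMSC-Exos 8 at 96.5 CPM, and the highest value of all was in untreated HFD 9, the library with muscle transcripts. The log2 fold change was −0.91 ± 0.37 (SE, edgeR adjusted p = 0.0884). It passed without UCMSC-Exos 8 (−1.19, adjusted p = 0.0288) or 9 (−1.07, 0.0418), over a range of adjusted p from 0.0288 to 0.158 without single libraries, and the part of adipocyte or muscle RNA in these values was not tested. By voom Plin4 passed as lower (−1.24, limma voom adjusted p = 0.00499), as did 4134 of all 16238 genes. Plin5, which tethers droplets to mitochondria in oxidative tissues, ran from 43.3 to 63.9 CPM in UCMSC-Exos and from 45.3 to 81.2 CPM in untreated HFD. Of the treated libraries, 3 lay below every untreated one and the other 5 within the untreated range, with a log2 fold change of −0.13 (95% interval −0.39 to 0.13, edgeR adjusted p = 0.466).

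Of the CIDE genes, Cidec fell, and neither Cideb nor Cidea passed. Cidec, the CIDE protein that enlarges droplets in white fat and steatotic liver, had 24.5, 57.7 and 103 CPM (lowest, median, highest) in UCMSC-Exos, against 65.6, 131 and 182 CPM in untreated HFD. All 8 treated libraries lay below the untreated median, and 5 of them below the lowest untreated value, which was that of untreated HFD 3, the library with pancreatic transcripts. The group means were 58.1 CPM ± 28.02 in UCMSC-Exos (SD, n = 8) and 128 CPM ± 37.2 in untreated HFD (SD, n = 9), and the log2 fold change was −1.14 ± 0.27 (SE, edgeR adjusted p = 0.0095). Without the libraries with Adipoq it was −1.31 (edgeR adjusted p = 0.0272). The call held in all 17 fits that leave out 1 library, with adjusted p of 0.00138 to 0.0219.

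Cideb, the CIDE protein of normal hepatocytes that also takes part in VLDL lipidation, ran the other way without passing. It had 29.8, 40.1 and 47.5 CPM in UCMSC-Exos, against 10.01, 31.2 and 39.9 CPM in untreated HFD, and 7 of 8 treated libraries lay above the untreated median. The log2 fold change was 0.43 ± 0.18 (SE, edgeR adjusted p = 0.0989), and 0.31 without untreated HFD 3, the lowest library, where it passed (adjusted p = 0.0326, the lowest of those fits, whose highest was 0.165). By voom Cideb passed as higher (0.40, limma voom adjusted p = 0.00192), as did 3577 of all 16238 genes. The gene is hard to count: 1136 of its 1488 exon bases (76.3%) are also exon of Nop9 on the opposite strand, and the counting used no strand and lists no option for reads that overlap more than 1 gene, which leaves 352 bases of its own. Nop9, a ribosome biogenesis factor, was at 21.99 CPM ± 1.85 in UCMSC-Exos and 23.2 CPM ± 4.51 in untreated HFD (log2 fold change −0.08, edgeR adjusted p = 0.6). Cidea, best known from brown fat and induced in severe steatosis, ran from 1.18 to 16.1 CPM in UCMSC-Exos and from 2.89 to 11.8 CPM in untreated HFD. UCMSC-Exos 7 and 8 were the highest of all 17 libraries, at 12.5 and 16.1 CPM, and the 95% interval of the log2 fold change was wide, from −0.97 to 0.95 (estimate −0.01, edgeR adjusted p = 0.989). Those 2 libraries also had 7.53 and 12.0 CPM of Cfd, an adipocyte-secreted protease, against 0.59 to 3.31 CPM in the other treated ones. In untreated HFD, Cfd ran from 1.08 to 14.7 CPM and was highest in untreated HFD 8, which also had the most Cidea of its group. Other adipocyte markers did not all go with Cfd. UCMSC-Exos 8 had 0.64 CPM of Adipoq, but UCMSC-Exos 7 had 0.03 CPM and no reads of Lep, Plin1, Retn or Ucp1. Untreated HFD 3, with the most Adipoq of all libraries (3.39 CPM), had 2.61 CPM of Cfd and 3.28 CPM of Cidea. The part of adipocyte RNA in the Cidea values was not tested.

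Of the lipases, Pnpla3 fell and Pnpla2 did not pass. Pnpla2 encodes ATGL and had 90.2, 99.5 and 105 CPM (lowest, median, highest) in UCMSC-Exos, against 84.5, 98.9 and 174 CPM in untreated HFD. Apart from 174 CPM in untreated HFD 9, all libraries lay between 84.5 and 116 CPM. The log2 fold change was −0.10, with a 95% interval of −0.35 to 0.14 (edgeR adjusted p = 0.561), and 0.0205 without untreated HFD 9. Pnpla3, a paralogue of ATGL on the droplet surface whose human coding variant is the best known genetic risk factor for fatty liver, was among the least abundant of the 10 genes. It had 0.42, 1.45 and 4.07 CPM in UCMSC-Exos, against 1.04, 5.02 and 7.24 CPM in untreated HFD. Every treated library lay below the untreated median, though the groups overlapped through UCMSC-Exos 6 (4.07 CPM) and untreated HFD 3 (1.04 CPM). Its means were 1.57 CPM ± 1.11 in UCMSC-Exos (SD, n = 8) and 4.60 CPM ± 1.99 in untreated HFD (SD, n = 9), a log2 fold change of −1.55 ± 0.39 (SE, edgeR adjusted p = 0.0113). In all 17 fits without 1 library it passed, at adjusted p of 0.00166 to 0.0259.

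Of the lipase inhibitors, G0s2 fell with no overlap between the groups, and Hilpda did not pass. G0s2 encodes a small protein that binds ATGL and blocks its activity. In UCMSC-Exos livers it stood at 10.4, 12.2, 9.96, 25.4, 48.6, 35.2, 47.6 and 29.6 CPM (replicates 1, 2, 3, 5, 6, 7, 8 and 9). In untreated HFD livers it stood at 78.2, 63.6, 58.8, 54.6, 63.8, 94.9, 107, 126 and 82.7 CPM (replicates 1 to 9). All 8 treated libraries were below the lowest untreated one, UCMSC-Exos 9 included, and replicates 1, 2 and 3 were the lowest. It was the only one of the 10 genes without overlap in that direction, as were 0.807% of all genes tested, and none was wholly higher, as were 0.493% (1.3% in either direction). The means were 27.4 CPM ± 15.8 in UCMSC-Exos (SD, n = 8) and 81.1 CPM ± 24.3 in untreated HFD (SD, n = 9), a log2 fold change of −1.57 ± 0.33 (SE, edgeR adjusted p = 0.00405), or 0.338 of the untreated level with a 95% interval of 0.209 to 0.544. Without any 1 library the value stayed between −1.74 and −1.44 with adjusted p of 0.00223 to 0.00979.

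Hilpda, a hypoxia-inducible ATGL inhibitor, ran from 2.84 to 6.28 CPM in UCMSC-Exos and from 2.89 to 5.32 CPM in untreated HFD. The highest value of all was in UCMSC-Exos 9, and 7 of 8 treated libraries lay below the untreated median. The log2 fold change was −0.27 (95% interval −0.62 to 0.08, edgeR adjusted p = 0.247), and −0.42 without UCMSC-Exos 9, where it passed (adjusted p = 0.0291; the other single-library fits reached up to 0.393).

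Within each library, the inhibitor was set against its lipase and paired droplet proteins against each other, in 5 log2 ratios of CPM tested by exact two-sided permutation over all 24310 assignments of 17 libraries to the groups, with Benjamini-Hochberg adjustment over the 5. The log2 ratio of G0s2 to Pnpla2 was −2.10 ± 0.89 in UCMSC-Exos (SD, n = 8) and −0.40 ± 0.41 in untreated HFD (SD, n = 9), a difference of −1.70 (exact permutation p = 4.11e-05, the smallest that 24310 assignments can give; adjusted p = 0.000206). The groups did not overlap: the treated libraries reached −1.10 at most, and the lowest untreated one, replicate 9, was at −1.08. G0s2 alone also separated the groups and Pnpla2 did not pass, so this ratio is no result apart from the fall of G0s2. The Cidec and Plin2 ratios below likewise contain the falls of those genes. The ratio of the co-activator Abhd5 to Pnpla2 differed by 0.18 (exact permutation adjusted p = 0.187), and that of Hilpda to Pnpla2 by −0.24 (exact permutation adjusted p = 0.246). The log2 ratio of Cidec to Cideb was 0.39 ± 0.86 in UCMSC-Exos and 2.13 ± 0.42 in untreated HFD, lower by the exact permutation test (difference −1.74, adjusted p = 0.000411), and each of the 8 treated libraries lay under the median of untreated HFD. Plin2 to Plin5 was 3.35 ± 0.22 in UCMSC-Exos and 3.72 ± 0.30 in untreated HFD (difference −0.36, exact permutation adjusted p = 0.0286). This last difference passed in 12 of the 17 tests without 1 library (adjusted p of 0.00389 to 0.0517), failing without UCMSC-Exos 2, 3, 5 or 8 or untreated HFD 2.

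**Figure D3:**
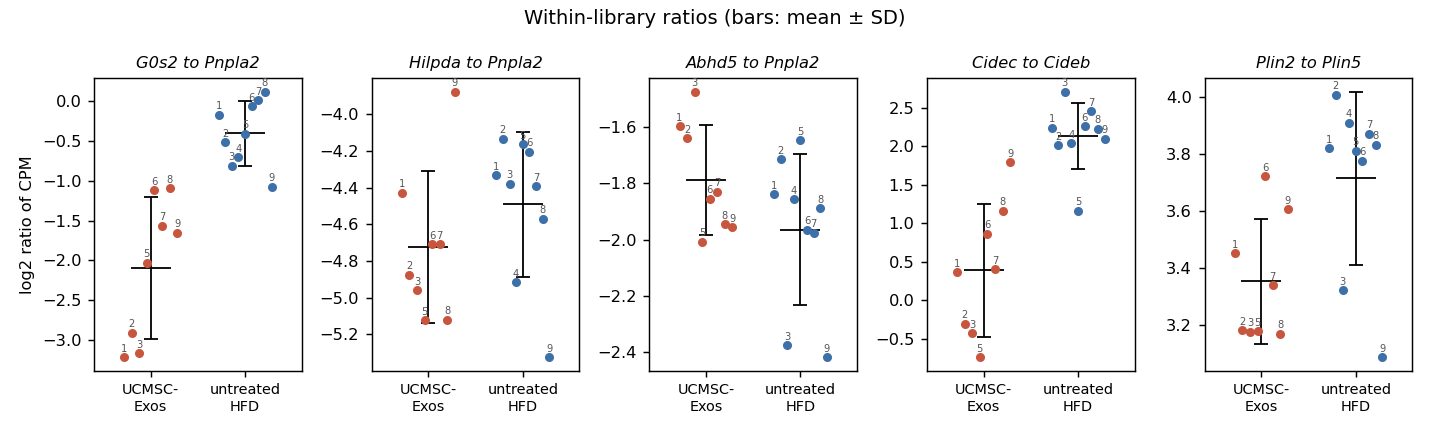
Log2 ratio of the CPM of 2 genes within each library (y axis), for 5 gene pairs, UCMSC-Exos left and untreated HFD right in each panel; digits are replicate numbers and bars the mean ± SD. The G0s2 to Pnpla2 ratio separates the groups fully, at −3.22 to −1.10 in UCMSC-Exos and −1.08 to 0.12 in untreated HFD, and the Abhd5 and Hilpda ratios overlap.

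Levels of different genes were compared per exon base, as counts per base scaled to the same total in each library (TPM). Over all exon bases of each gene, shared ones included, Plin2 was the most abundant of the 10 in every library. Its means were 405 TPM ± 155 in UCMSC-Exos (SD, n = 8) and 629 TPM ± 71.8 in untreated HFD (SD, n = 9). It made up 48.7% ± 3.39 of the summed TPM of the 10 genes in UCMSC-Exos and 44.3% ± 4.95 in untreated HFD. In untreated HFD livers G0s2 (278 TPM ± 86.1) and Cidec (207 TPM ± 64.4) came next, each above Pnpla2 (104 TPM ± 27.9) by the mean, and Cidec was above Pnpla2 in 8 of 9 libraries. In UCMSC-Exos livers Cidec (83.9 TPM ± 52.8), Pnpla2 (83.4 TPM ± 10.7), G0s2 (81.2 TPM ± 47.7), Cideb (67.9 TPM ± 4.97) and Plin5 (64.8 TPM ± 17.3) each overlapped the next in range. Cidec exceeded Pnpla2 in only 3 of 8 libraries, but Pnpla2 exceeded Cideb and Plin5 within every UCMSC-Exos library. Plin4 (18.0 TPM in UCMSC-Exos and 37.9 TPM in untreated HFD), Cidea (13.2 and 15.6 TPM) and Hilpda (9.13 and 12.4 TPM) followed with overlapping ranges in both groups. Pnpla3 was lowest by the mean in both, at 2.61 TPM ± 1.82 in UCMSC-Exos and 8.99 TPM ± 4.16 in untreated HFD. Per base not shared with Nop9, Cideb would average 287 TPM (range 268 to 332) in UCMSC-Exos and 251 TPM (range 80.6 to 310.0) in untreated HFD. The place of Cideb in the order is therefore uncertain. That includes its place beside Plin2, which was at 267.5 TPM in UCMSC-Exos 5 and 276 TPM in UCMSC-Exos 3.

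**Figure D4:**
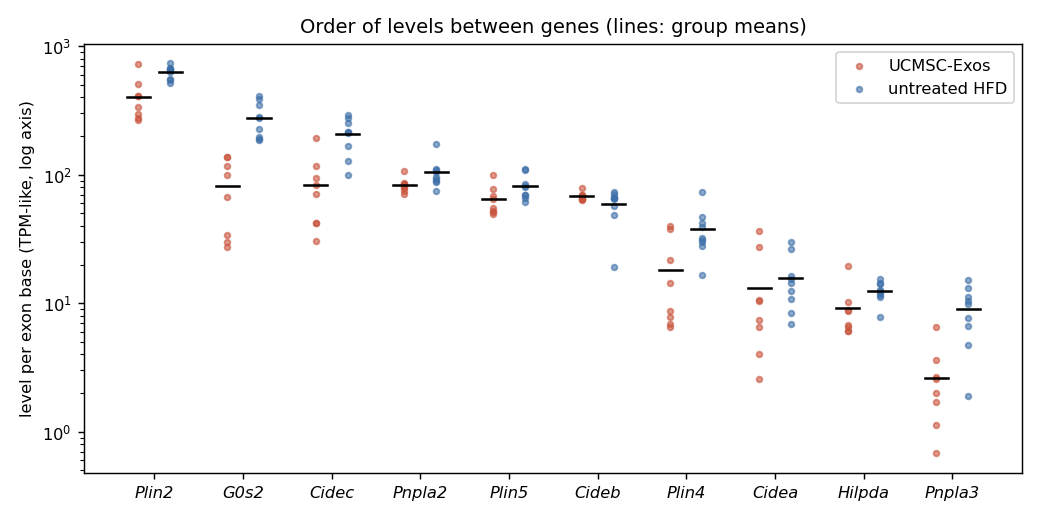
Level per exon base (TPM, log axis) of the 10 genes in each library, in the order of their untreated HFD means, with UCMSC-Exos left of untreated HFD for each gene; short lines are group means. Plin2 is highest in both groups, and G0s2 and Cidec drop to the level of Pnpla2 in UCMSC-Exos.

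The genes also varied between livers of the same group. UCMSC-Exos 1, 2, 3 and 5 had less Plin2, Plin4, Cidec and G0s2 than UCMSC-Exos 6, 7, 8 and 9: 407 to 474 against 575 to 739 CPM for Plin2, 17.1 to 21.95 against 36.7 to 96.5 CPM for Plin4, 24.5 to 52.3 against 63.0 to 103 CPM for Cidec, and 9.96 to 25.4 against 29.6 to 48.6 CPM for G0s2. No label separates these libraries, this split was seen in the data, and no correlation over the 8 alone is given because of it. In untreated HFD the 45 pairs of genes had a median Pearson r of 0.27 over 9 libraries. Of 90 pairs over both groups, the pair of Plin4 and Pnpla2 in untreated HFD passed adjustment with both measures (Pearson r = 0.91, exact permutation adjusted p = 0.0134; Spearman rho = 0.95, exact permutation adjusted p = 0.0317). Without the 2 libraries farthest from the median of Plin4, r was 0.85.

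Over 17 libraries, with each group's mean subtracted, the 3 genes most like each of the 4 that fell were sought among 10709 genes with a mean of at least 5 CPM. For Cidec they were Osbpl3, Pparg and Ephb2, with Pearson r of 0.88, 0.88 and 0.87, and for Plin2 Cgref1, 2010003K11Rik and Haus8, with 0.92, 0.91 and 0.91. For G0s2 they were Ccnf, Arrdc3 and Bcl6 (0.88, 0.88 and 0.85) and for Pnpla3 Fam124a, Gga3 and Arfip2 (0.90, 0.88 and 0.86). The differences of these genes between the groups varied. All 3 most like Plin2 fell, with log2 fold changes of −1.07, −1.26 and −0.88 (edgeR adjusted p = 0.00729, 0.000265 and 0.0094). All 3 most like Cidec fell too, at −0.51, −0.70 and −1.66 (edgeR adjusted p = 0.0314, 0.000493 and 0.02). For G0s2, Bcl6 rose by 0.99 (edgeR adjusted p = 0.00885), and Ccnf and Arrdc3 did not pass. None of the 3 most like Pnpla3 passed. The Pearson coefficients are descriptions: they pool the 8 treated libraries with the split described above, they are the highest of many, and all genes share the libraries' depth and composition.

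Further droplet genes were taken from lists, to be read beside all 16238 genes tested. Of these, 9.73% rose and 10.4% fell by edgeR. By DESeq2 2003 rose and 2062 fell, and by voom 3577 rose and 4134 fell. The counts of list genes at an unadjusted p have no all-gene count beside them. With surrogate variables 694 rose and 855 fell, and without UCMSC-Exos 9 2456 of 16326 genes rose and 3367 fell. Of 15 tested genes of droplet coat and assembly 4 rose and none fell by edgeR (6 and 0 at an unadjusted p under 0.05; 4 and 0 by DESeq2; 9 and 1 by voom), with a median log2 fold change of 0.18 beside −0.02 for all genes. Vmp1 and Tmem41b, lipid scramblases of the endoplasmic reticulum, had log2 fold changes of 0.38 ± 0.08 and 0.44 ± 0.15 (SE, edgeR adjusted p = 0.00218 and 0.0418). Hsd17b11, a droplet-bound dehydrogenase, was at 296 CPM ± 31.4 in UCMSC-Exos and 216 CPM ± 31.2 in untreated HFD (0.45 ± 0.09, edgeR adjusted p = 0.00245). Ldah, a droplet-associated hydrolase, was at 0.32 ± 0.09 (edgeR adjusted p = 0.0262). Plin3, the perilipin that shuttles between cytosol and droplets, did not pass, at −0.21 ± 0.11. Plin1, the perilipin of adipocytes, was too low to be tested. None fell, and 7 rose without UCMSC-Exos 9 and 2 without UCMSC-Exos 1, 2 or 3 or with surrogate variables. Over all genes, 1200, 1117 and 1078 rose and 1051, 969 and 927 fell without UCMSC-Exos 1, 2 and 3.

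Of 19 other lipases and cofactors 5 rose and none fell by edgeR (6 and 3 at an unadjusted p under 0.05; 5 and 0 by DESeq2; 9 and 5 by voom), with a median of 0.15. Ces3a and Ces3b, carboxylesterases of the hepatocyte endoplasmic reticulum, had log2 fold changes of 1.01 ± 0.16 and 1.46 ± 0.37 (SE, edgeR adjusted p = 0.000413 and 0.013). They belong to a family of close copies whose reads may be split. Aadac, an arylacetamide deacetylase, and Lipc, hepatic lipase, were at 0.54 ± 0.10 and 0.62 ± 0.13 (edgeR adjusted p = 0.00133 and 0.00455). Abhd5, the ATGL co-activator, Lipe, hormone-sensitive lipase, and Mgll, monoglyceride lipase, did not pass, at 0.10 ± 0.09, −0.03 ± 0.13 and 0.03 ± 0.08. Over all genes tested, 9.73% rose and 10.4% fell by edgeR. At least 4788 genes, in either direction, had an unadjusted p under 0.05. Of 16238 genes, DESeq2 called 2003 higher and 2062 lower, and voom called 3577 higher and 4134 lower. Without UCMSC-Exos 9, 7 of the list rose and 3 fell, beside 2456 and 3367 of 16326 genes. Without the libraries with Adipoq 3 of the list rose and none fell, beside 868 and 666 of 16441 genes. With surrogate variables 3 rose and 1 fell, beside 694 and 855 of 16238 genes, and the median of the list was 0.00057. The 8 hepatocyte markers, with a median of 0.66, were higher in the same livers, and their part in these rises was not tested.

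Among 12 transcription factors known to drive droplet genes 4 rose and 1 fell (edgeR), beside 9.73% and 10.4% of all genes tested. Pparg, the adipogenic nuclear receptor that is induced in fatty liver and known to switch on Cidec, fell to 21.96 CPM ± 4.07 in UCMSC-Exos (SD, n = 8), against 35.7 CPM ± 5.48 in untreated HFD (SD, n = 9), with a log2 fold change of −0.70 ± 0.11 (SE, edgeR adjusted p = 0.000493) and no overlap between the groups. Mlxipl (ChREBP), a glucose-responsive activator of lipogenesis, Foxo1, the insulin-restrained factor known to raise Pnpla2 and lower G0s2, and Rxra, the partner of PPAR receptors, rose, with log2 fold changes of 0.67, 0.54 and 0.40 (edgeR adjusted p = 0.00188, 0.00309 and 0.0117). Srebf1 and Ppara had log2 fold changes of 0.04 and 0.25 and did not pass. Of 12 genes of lipophagy and droplet turnover 4 rose and none fell by edgeR (7 and 2 at an unadjusted p under 0.05, 5 and 1 by DESeq2, 7 and 2 by voom). The 4 were Map1lc3b, the LC3 protein of autophagosomes, Atg7, an enzyme of LC3 conjugation, Lamp2 of the lysosomal membrane, and Ubqln1, a ubiquitin receptor. Their log2 fold changes were 0.27, 0.27, 0.34 and 0.24. Without UCMSC-Exos 9, 6 rose and 1 fell, and with surrogate variables 1 rose and 1 fell. Over all genes, 2456 rose and 3367 fell without UCMSC-Exos 9, and 694 rose and 855 fell with surrogate variables. DESeq2 called 2003 of all genes higher and 2062 lower, and voom called 3577 higher and 4134 lower. Of the lipophagy list none fell and 1 rose without UCMSC-Exos 2, 3, 5 or 7 or the libraries with Adipoq. Over all genes, 1117, 1078, 1181 and 1248 rose and 969, 927, 1080 and 1164 fell without UCMSC-Exos 2, 3, 5 and 7. Without the libraries with Adipoq 868 of 16441 genes rose and 666 fell. In that list 2 rose without UCMSC-Exos 1, without untreated HFD 3 and 9 or with no filter. In these 3 fits 1200, 1761 and 1217 of all genes rose and 1051, 1580 and 1062 fell.

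**Figure D5:**
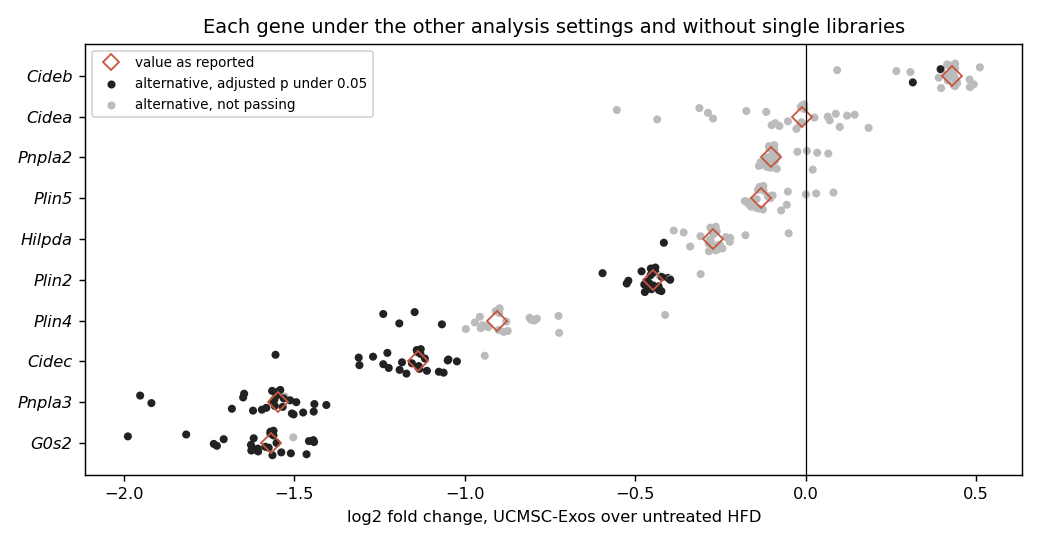
Log2 fold change of each gene (x axis) as reported (diamonds) and under 27 alternatives (dots), which are other scalings, filters and tools, the replicate block, surrogate variables, and fits without libraries. Black dots passed an adjusted p of 0.05. G0s2, Pnpla3, Cidec and Plin2 stay left of 0 in every one, and Cidea, Pnpla2 and Plin5 have dots on both sides.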

How the data were processed

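Liver RNA-seq was analysed from 1 table of read counts per gene, deposited by the authors without normalization, per the file headers. Per the submitters' processing notes, the tools were Subread 2.0.2 with featureCounts, HISAT2 2.2.1 and fastp 1.3.3, on mm10. Per the file headers, featureCounts 2.1.1 counted exons of GENCODE release 25 (vM25) without strand. Gene lengths are the deposited exon bases. Of 18 per-sample columns, 17 matched a sample and 1 was not used. Of 55401 IDs, 55141 matched a symbol; 1 listed gene (Ldaf1) had no row.

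Genes were filtered with filterByExpr (minimum count 10), scaled by TMM and tested with edgeR 4.0.16 (R 4.3.3; robust quasi-likelihood F test, two-sided, Benjamini-Hochberg over 16238 genes, threshold 0.05). CPM uses effective library sizes, and log2 CPM a prior count of 2. P-values measure the spread between these libraries. No pair of libraries agreed within sampling noise (lowest median chi-square 3.90 times noise). Alternatives used DESeq2 1.42.0, limma 3.58.1 and sva 3.50.0. On simulated counts, 49.3%, 86.6% and 98.5% of genes changed by log2 0.5, 1 and 2 were recovered, and 2.5% of calls were false. These counts were drawn independently, with 67, 67 and 66 changed genes and no foreign transcripts or outlying library. The rates need not hold for the real libraries, where 20.2% of genes passed.

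The genes, the lists and the tests were chosen with earlier results of these data known. Named genes are the 10, up to 4 passing genes of smallest p in each further list (2 where none passed), and the most alike; Plin1, which was not tested, and Plin3, Abhd5, Lipe, Mgll, Srebf1 and Ppara, which did not pass, were added after their values were seen, as was the setting without libraries at or above 0.5 CPM of Adipoq.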

Additional observations from a re-analysis of the deposited data

Results flagged for a closer look

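Of 30 sets of values (10 genes and 5 ratios in each group), 6 held a library whose gap to its neighbour was large for the range of its group; chance gives about 1 in 20 sets. Cideb was lowest at 4.90 log2 CPM in UCMSC-Exos 9 and lowest at 3.33 log2 CPM in untreated HFD 3. Pnpla2 was highest at 7.45 log2 CPM in untreated HFD 9, the library with 7724 CPM of skeletal muscle markers. Pnpla3 was lowest at 0.14 log2 CPM in untreated HFD 3, the library with 10770 CPM of pancreatic markers. Hilpda was lowest at 1.56 log2 CPM in untreated HFD 4. The log2 ratio of Cidec to Cideb was lowest at 1.16 in untreated HFD 5 within its group. The part of the foreign transcripts in these values was not tested.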

How the results depend on the processing

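Of the 4 genes that fell, each kept its direction under all 27 alternatives, and each lost its call with surrogate variables, where members passing went to 0. Genes passing went from 3274 to 1549 with surrogate variables, 7711 with limma voom, 1534 without the libraries with Adipoq, and 2005 to 5823 without single libraries; members passing ranged from 3 to 6 there. Directions of genes that did not pass turned for Plin5 at 0.081 with surrogate variables, 0.031 without untreated HFD 3 and 9 and 0.00056 without the libraries with Adipoq, and for Pnpla2 at 0.0034 with voom, 0.034 without untreated HFD 3 and 9 and 0.066 without the libraries with Adipoq. Without single libraries Cidea ran from −0.44 to 0.18, Pnpla2 from −0.14 to 0.0205 and Plin2 to Plin5 from −0.44 to −0.33. List counts, both directions together, went to 10 (coat and assembly), 14 (lipases) and 9 (lipophagy) with voom, 2 (coat and assembly) and 2 (lipophagy) with surrogate variables, 2 (lipophagy) with no filter or without untreated HFD 3 and 9, and 3 (lipases), 3 (transcription factors) and 1 (lipophagy) without the libraries with Adipoq. Without single libraries they were 2 to 7, 5 to 10 and 1 to 7 for coat, lipases and lipophagy. List medians with surrogate variables were 0.01 (coat and assembly), 0.00057 (lipases), 0.05 (lipophagy) and 0.13 (transcription factors). The cause of these changes was not tested.

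No pairing of the mice by replicate number was seen: same-numbered libraries correlated at −0.17 to 0.24, over 0.1 in 2 of 8 pairs, and 0 of 8 matched their own number best. Such correlations cannot show that the mice were not matched, and the labels give no cage or batch. With the replicate block 5 of 10 genes passed, Plin4 added at −1.15 (edgeR adjusted p = 0.00489), 3027 genes passed in all, and the Plin2 to Plin5 ratio was at −0.34 (exact sign-flip adjusted p = 0.104). Pnpla3, Hilpda and Cidea had the lowest counts of the 10, with UCMSC-Exos medians of 1.45, 3.50 and 3.51 CPM; a limit by depth was not tested per gene.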
